A study of Homo sapiens with 9 samples.

Results

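The apoptosis regulators described here are 9 genes of the BCL2 family and of the inhibitor of apoptosis proteins (IAPs): MCL1, BCL2L1, BAX, BAK1, BID, XIAP, BIRC2, BIRC3 and CFLAR. They were chosen by name, as the probe sets of the deposited table annotated to these symbols. Of the 9 genes, 7 were measured under 1 gene symbol among the 9784 genes of the table, each by 1 probe set. The probe set of CFLAR is also annotated to the antisense gene CFLAR-AS1, and BIRC3 was not analysed here.

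The cells were Huh7, a line from a human hepatocellular carcinoma, and their RNA was read on 9 Affymetrix transcriptome arrays in 3 groups of 3 replicates. Huh7-R-A7 is 1 sorafenib-resistant clone picked as an individual colony out of Huh7-R, Huh7-R is the uncloned sorafenib-resistant pool, and Huh7-S are the untreated parental cells from which both derive. Both resistant lines had been given 4 h pulses of 10 µM sorafenib weekly over 6 weeks and were then kept in the drug at up to 6 µM. By the labels the drug was taken away 5 to 7 days before the experiments, so no array shows cells in sorafenib. All values are log2 signals after robust multi-array averaging (RMA), a difference of 1 is 2-fold, and the study's methods took signals below log2 6 as noise. Probe sets had been filtered on that limit, so measured genes and all genes here mean those left after the filter.

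Cells enter mitochondrial apoptosis when BAX or BAK1 forms pores in the outer mitochondrial membrane and cytochrome c leaves. MCL1 and the long product of BCL2L1 hold BAX and BAK1 in check, and the BH3-only proteins, BID among them, release or activate them. BID also links death receptors to mitochondria, because caspase-8 cuts it, and the long forms of CFLAR block caspase-8 at the receptor. XIAP inhibits caspases directly, while BIRC2 and BIRC3 are ubiquitin ligases of the tumor necrosis factor receptor complex, where they sustain NF-kB signaling and restrain the non-canonical branch of it. Hepatocytes are known for needing BID to die through FAS and for depending on MCL1 and BCL2L1 for survival. RNA levels do not show the cleavage, binding or turnover on which these proteins act, and a signal per gene does not separate splice forms with opposite roles such as those of BCL2L1, BID and MCL1.

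In both resistant lines 3 of the 7 measured members changed against Huh7-S and the same 3 did so in each. BIRC2 rose 2.51-fold in Huh7-R-A7 and 2.05-fold in Huh7-R, BID rose 1.44-fold and 1.56-fold, and BCL2L1 was 1.51-fold and 1.31-fold lower. MCL1, BAX, BAK1 and XIAP did not pass in any comparison. A gene passed at an adjusted p below 0.05 in limma's moderated test, two-sided and adjusted by Benjamini-Hochberg over all 9784 genes. Over all genes 42.7% passed in Huh7-R-A7 against Huh7-S (18% rose and 24.6% fell) and 45.1% in Huh7-R against Huh7-S (19% rose and 26.2% fell). The 3 of 7 members that passed are thus near the share of all genes. In each line 3 of the 7 members had arrays that did not overlap with Huh7-S, against 52.4% of all genes in Huh7-R-A7 and 53% in Huh7-R. The median log2 difference over the members was 0.04 in Huh7-R-A7 and 0.03 in Huh7-R, and over all genes -0.04 and -0.03. Both comparisons use the same Huh7-S arrays and the clone came from the pool, so that they are not independent of each other.

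The start regions of the 3 genes that changed are shown for their makeup, each 300 bases from 250 before to 50 after the RefSeq start on GRCh38.p14, 5′ to 3′ on the strand of the gene. The regions are chr11:102346964-102347263 (+) for BIRC2, chr22:17774420-17774719 (-) for BID and chr20:31723914-31724213 (-) for BCL2L1. Capitals mark matches of any motif searched.
BIRC2: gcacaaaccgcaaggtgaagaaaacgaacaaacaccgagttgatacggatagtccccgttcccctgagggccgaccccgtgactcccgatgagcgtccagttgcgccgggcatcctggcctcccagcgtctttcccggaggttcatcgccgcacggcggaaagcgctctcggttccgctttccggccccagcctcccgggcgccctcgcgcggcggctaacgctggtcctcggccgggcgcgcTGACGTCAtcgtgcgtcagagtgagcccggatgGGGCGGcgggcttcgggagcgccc
BID: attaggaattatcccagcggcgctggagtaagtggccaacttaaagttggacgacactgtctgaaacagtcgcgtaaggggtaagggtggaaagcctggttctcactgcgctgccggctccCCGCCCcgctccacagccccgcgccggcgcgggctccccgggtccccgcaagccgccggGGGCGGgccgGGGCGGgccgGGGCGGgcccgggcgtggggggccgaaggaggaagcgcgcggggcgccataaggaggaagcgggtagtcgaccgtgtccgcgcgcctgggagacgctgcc
BCL2L1: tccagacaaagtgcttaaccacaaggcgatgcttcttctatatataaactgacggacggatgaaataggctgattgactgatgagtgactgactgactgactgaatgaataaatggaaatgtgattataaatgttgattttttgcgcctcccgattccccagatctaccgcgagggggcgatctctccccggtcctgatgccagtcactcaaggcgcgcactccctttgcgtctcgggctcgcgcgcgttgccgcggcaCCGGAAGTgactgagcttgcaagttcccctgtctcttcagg
The BIRC2 region held 1 cyclic AMP response element (CRE, TGACGTCA), which began at -7 from the start and reads the same on both strands, and 1 GC box (GGGCGG). The BID region held 4 GC boxes and the BCL2L1 region 1 ETS site (CCGGAAGT). Neither the NF-kB consensus nor the single p53 site searched, which a full p53 element repeats, matched any of the 3. Over 27305 promoters of this length, 10.8% held the NF-kB consensus, 6.54% the single p53 site, 1.98% the CRE, 44.6% a GC box and 4.44% the ETS site. The last 3 motifs were chosen after the sequences had been read, and motifs were searched on both strands with overlaps kept. Of the 8 members listed in the RefSeq promoter table, the NF-kB consensus matched in 2, BIRC3 and CFLAR, and the single p53 site in BAK1 alone.

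**Figure D1:**
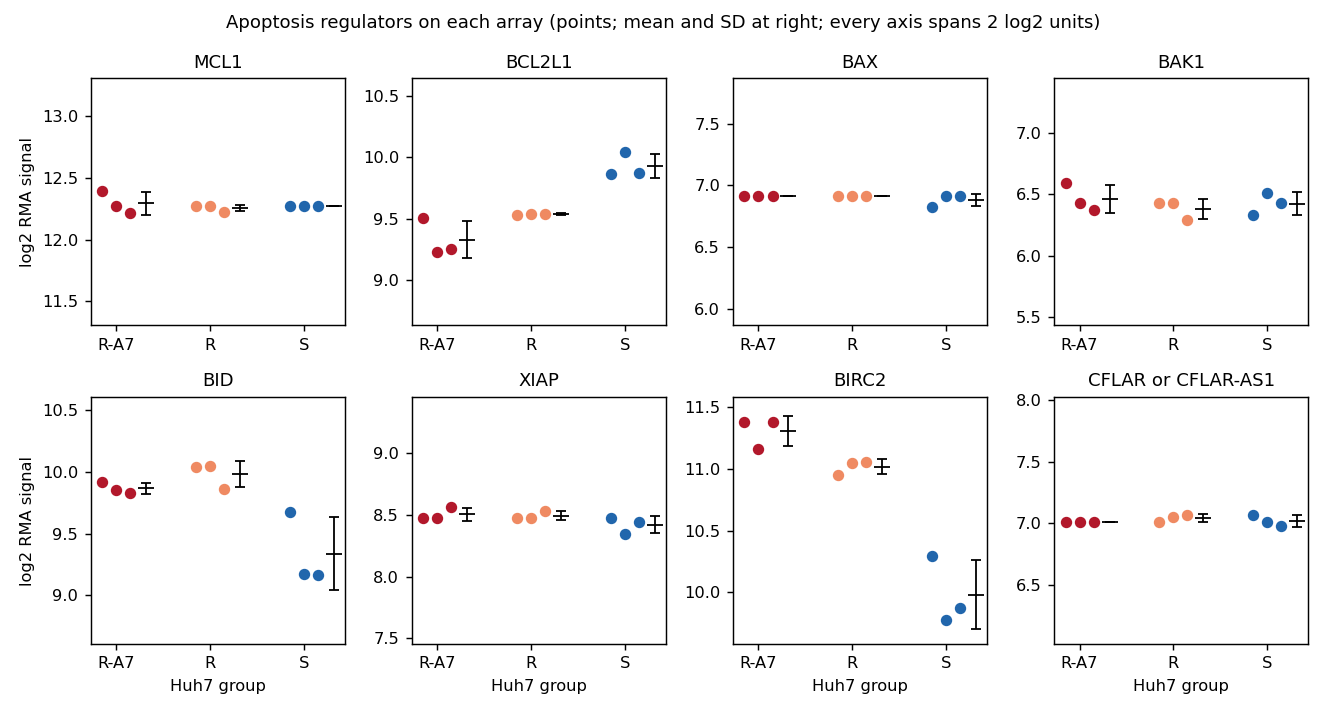
Log2 RMA signal of the 7 measured members and of the probe set shared by CFLAR and CFLAR-AS1, with a point for each array of Huh7-R-A7 (R-A7), Huh7-R (R) and Huh7-S (S) and the group mean with its SD (n = 3) at the right of the points. Every vertical axis spans 2 log2 units, so that heights of changes compare between panels, and both resistant groups lie apart from Huh7-S for BIRC2, BID and BCL2L1, while for BID the clone and the pool overlap.

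Among the anti-apoptotic members, BCL2L1 fell. Its log2 signal was 9.51, 9.23 and 9.26 in Huh7-R-A7, 9.53, 9.54 and 9.54 in Huh7-R and 9.87, 10.05 and 9.87 in Huh7-S. Every resistant array lay below every Huh7-S array, and every Huh7-R-A7 array lay below every Huh7-R array. The log2 difference was -0.60 in Huh7-R-A7 (SE 0.09, adjusted p = 9e-04) and -0.39 in Huh7-R (SE 0.09, adjusted p = 0.0069) against Huh7-S. It passed in 9 of 9 fits that left out 1 array, with ranges of -0.68 to -0.54 and -0.42 to -0.33. Between the clone and the pool the difference of -0.21 had an adjusted p of 0.2, with a 95% interval of -0.40 to -0.01, and passed when limma weighted the arrays (-0.27, adjusted p = 0.014) or with replicates 2 and 3 of each group alone (-0.30, adjusted p = 0.046).

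MCL1, a short-lived protein whose amount is set largely by its turnover, did not pass in any comparison. It was at 12.40, 12.27 and 12.22 in Huh7-R-A7, 12.27, 12.27 and 12.23 in Huh7-R and 12.27, 12.27 and 12.27 in Huh7-S. The groups overlapped, and 3 of the 9 arrays held exactly the same value. The log2 difference was 0.02 in Huh7-R-A7 (95% interval -0.11 to 0.16, adjusted p = 0.76) and -0.01 in Huh7-R (-0.15 to 0.12, adjusted p = 0.87) against Huh7-S.

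Among the pro-apoptotic members, BID rose while the pore formers BAX and BAK1 did not pass. BID was at 9.92, 9.85 and 9.83 in Huh7-R-A7, 10.05, 10.05 and 9.86 in Huh7-R and 9.68, 9.17 and 9.17 in Huh7-S. No resistant array overlapped with Huh7-S, although replicate 1 of Huh7-S lay nearer to them than to the other Huh7-S replicates (parental SD 0.29, n = 3). The log2 difference was 0.53 in Huh7-R-A7 (SE 0.14, adjusted p = 0.016) and 0.65 in Huh7-R (SE 0.14, adjusted p = 0.0062). Without replicate 1 of Huh7-S the differences were 0.70 in Huh7-R-A7 (adjusted p = 0.00026) and 0.82 in Huh7-R (adjusted p = 0.00014). In the clone the call was lost without replicate 1 of Huh7-R-A7 (0.50, adjusted p = 0.05 after rounding) or without replicate 2 of Huh7-S (0.45, adjusted p = 0.056), and in the pool it passed in 9 of 9 such fits.

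BAX read 6.91 on 8 of the 9 arrays and 6.82 on replicate 1 of Huh7-S. Such an equal value on at least 8 arrays was found in 0.76% of all genes. Its log2 difference was 0.03 in both resistant lines (95% interval -0.07 to 0.12, adjusted p = 0.6). BAK1, close to the noise limit, was at 6.59, 6.43 and 6.37 in Huh7-R-A7, 6.43, 6.43 and 6.29 in Huh7-R and 6.33, 6.51 and 6.43 in Huh7-S. All 3 groups of BAK1 overlapped, with differences of 0.04 in Huh7-R-A7 (95% interval -0.14 to 0.22, adjusted p = 0.69) and -0.04 in Huh7-R (-0.22 to 0.14, adjusted p = 0.71).

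**Figure D2:**
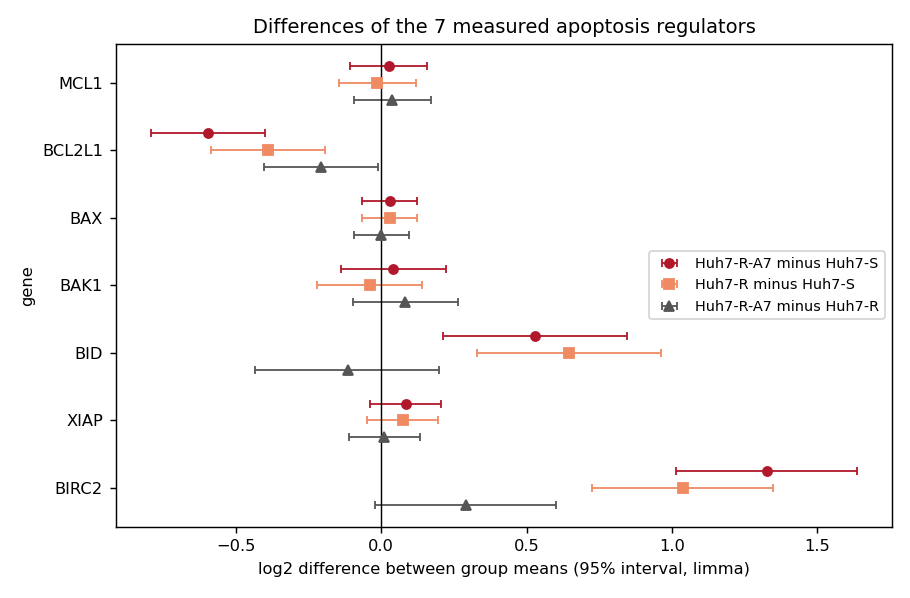
Log2 differences of the 7 measured members (points) with 95% intervals from limma, for Huh7-R-A7 minus Huh7-S (circles), Huh7-R minus Huh7-S (squares) and Huh7-R-A7 minus Huh7-R (triangles). The intervals against Huh7-S leave out 0 for BIRC2, BID and BCL2L1, and those of MCL1, BAX, BAK1 and XIAP hold 0 in every comparison.

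Among the IAPs, BIRC2 had the largest change of any member. It was at 11.38, 11.17 and 11.39 in Huh7-R-A7, 10.95, 11.05 and 11.06 in Huh7-R and 10.30, 9.78 and 9.87 in Huh7-S. The clone lay above the pool and the pool above Huh7-S, without overlap between any of the groups. The log2 difference was 1.33 in Huh7-R-A7 (SE 0.13, adjusted p = 0.00016) and 1.04 in Huh7-R (SE 0.13, adjusted p = 0.00058) against Huh7-S. By size it ranked 676 and 1048 among the 9784 genes. It passed in 9 of 9 fits that left out 1 array, and without replicate 1 of Huh7-S it was 1.49 in Huh7-R-A7 (adjusted p = 2.1e-05) and 1.20 in Huh7-R (adjusted p = 5.5e-05). XIAP, the IAP that binds caspases most tightly, was at 8.48, 8.48 and 8.57 in Huh7-R-A7, 8.48, 8.48 and 8.54 in Huh7-R and 8.48, 8.35 and 8.44 in Huh7-S, with the same value on 5 arrays. It differed by 0.08 in Huh7-R-A7 (95% interval -0.04 to 0.20, adjusted p = 0.24) and by 0.07 in Huh7-R (-0.05 to 0.20, adjusted p = 0.29). In the clone it passed when the arrays were weighted (0.13, adjusted p = 0.042).

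The probe set shared by CFLAR and CFLAR-AS1 cannot be assigned to either gene and was not tested. It read 7.01, 7.01 and 7.01 in Huh7-R-A7, 7.01, 7.05 and 7.06 in Huh7-R and 7.07, 7.01 and 6.97 in Huh7-S, and all groups overlapped.

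Between the clone and the pool, 0 of the 7 members passed, against 8.63% of all genes (4.11% rose and 4.52% fell), and 1 (BCL2L1) had an unadjusted limma p below 0.05. BIRC2 was 0.29 higher in Huh7-R-A7 (95% interval -0.02 to 0.60, adjusted p = 0.25) and passed without replicate 1 of Huh7-S (adjusted p = 0.045), which enters this contrast only through the shared estimate of spread. BID had a difference of -0.12 (95% interval -0.43 to 0.20, adjusted p = 0.68). MCL1, BAX, BAK1 and XIAP differed by 0.04, 0, 0.08 and 0.01, each with an adjusted p of at least 0.6. Arrays of the clone and the pool did not overlap for BIRC2 and BCL2L1, 2 of 7 members, against 31.4% of all genes.

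BIRC2 stands on chromosome 11 with BIRC3, YAP1 and TMEM123 around it, and the nearest measured gene on each side was read to see whether the neighborhood moved with it. YAP1, the growth coactivator, lies 114 kb away and had log2 differences of 0.07 in Huh7-R-A7 (adjusted p = 0.37) and 0.11 in Huh7-R (adjusted p = 0.15). TMEM123 on the other side, 17.7 kb away, was at 15.23, 14.92 and 15.09 in Huh7-R-A7, 14.94, 14.92 and 14.99 in Huh7-R and 14.92, 14.48 and 14.38 in Huh7-S. It rose by 0.49 in Huh7-R-A7 (adjusted p = 0.026) and had a difference of 0.36 in Huh7-R (adjusted p = 0.076). Next to BID, its relative BCL2L13 had 0.06 and 0.11 (adjusted p = 0.54 and 0.24) and the microRNA gene MIR3198-1, which overlaps BID, -0.24 (adjusted p = 0.12) and -0.99 (adjusted p = 3e-04) in the clone and the pool. Beside BCL2L1, ID1 had differences of -0.75 and -0.64 (adjusted p = 0.061 and 0.094) and the spindle gene TPX2 of -0.36 and -0.51 (adjusted p = 0.075 and 0.021), in the clone and the pool. Around the members that did not pass, ITPR3 beside BAK1 rose by 1.36 in Huh7-R-A7 (adjusted p = 0.01) and by 2.08 in Huh7-R (adjusted p = 0.0013), and NUCB1 beside BAX rose by 0.62 (adjusted p = 0.016) and 0.92 (adjusted p = 0.0024). RNU7-69P beside XIAP fell by 0.32 in Huh7-R-A7 (adjusted p = 0.015) and by 0.35 in Huh7-R (adjusted p = 0.0099). STAG2 beside XIAP, FTL beside BAX, ZBTB9 beside BAK1 and TARS2 and ENSA beside MCL1 did not pass in either line.

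Over the 9 arrays the genes whose pattern was most like that of BIRC2 were PLEKHA7 (Pearson r = 0.9883), BBX (0.9873) and CLIP4 (0.9872). All 3 were higher in every resistant array than in every Huh7-S array. A total of 165 of 9767 genes had an r above 0.95 with BIRC2. The 9 points fall into 3 groups of related cultures and share their scaling, so no p is given.

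Around the members, 92 other genes of the pathway were listed, of which 57 were measured. In Huh7-R-A7 14 of the 57 rose and 5 fell against Huh7-S, and in Huh7-R 17 rose and 10 fell. Of all genes 18% rose and 24.6% fell in Huh7-R-A7, and 19% rose and 26.2% fell in Huh7-R, and these shares are the background for each of the lists. The median log2 difference of the 57 was 0.08 in Huh7-R-A7 and 0.03 in Huh7-R, beside -0.04 and -0.03 over all genes. Rises were shared by 10 genes and falls by 4, no gene passed in opposite directions, and 25 passed in neither line. The genes described next are those that passed with an absolute difference of at least 1 against Huh7-S, up to 4 of each list (BMF, BCL2L11, BNIP3L, TNFRSF10A, TNFRSF11B, TNFAIP3 and USP13), and others chosen after their values were seen.

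**Figure D3:**
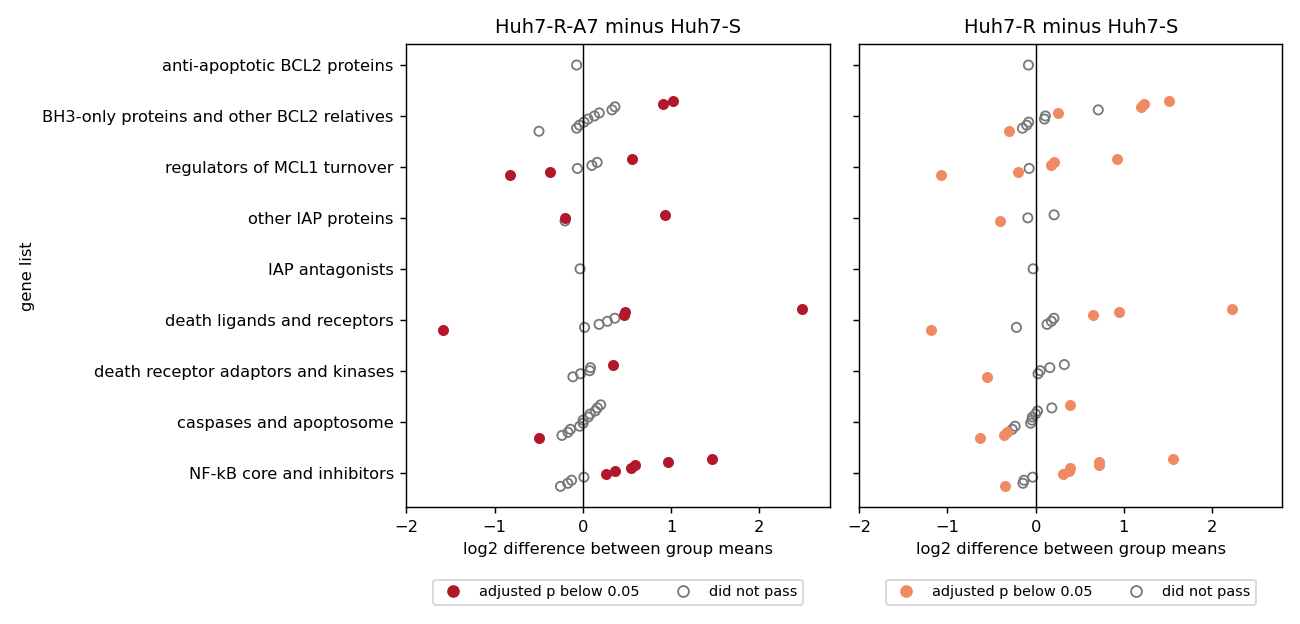
Log2 differences of the 57 other measured apoptosis genes by list, a point for each gene, for Huh7-R-A7 minus Huh7-S (left) and Huh7-R minus Huh7-S (right), filled where the adjusted p was below 0.05 and open where it was not. The point farthest to the right in both panels is TNFRSF10A at 2.49 and 2.22, and 6 of the 10 NF-kB genes are filled on the right of 0 in each.

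The list of BH3-only genes and other relatives of BCL2 also holds BCAP31 and VDAC2, which are of neither kind. Of its 11 measured genes 2 rose and 0 fell in Huh7-R-A7, where 18% of all genes rose. In Huh7-R, where 19% did, 4 rose and 1 fell, and BCAP31 was 1 of those 4 (0.26, adjusted p = 0.016). The 1 that fell was BOK (-0.30, adjusted p = 0.048), at least 1.05-fold as a bound, which was below log2 6 on 7 of the 9 arrays. Of the 2 rises in Huh7-R-A7, 1 was PMAIP1, whose low signal is described below. Of this list 0 fell in the clone also at an unadjusted limma p below 0.05, with BNIP3 at -0.50 (adjusted p = 0.26). BMF, a BH3-only protein tied to the cytoskeleton, was at 6.82, 7.10 and 7.02 in Huh7-R-A7, 7.07, 7.86 and 7.51 in Huh7-R and 6.46, 5.53 and 5.90 in Huh7-S. It was above every parental array in both lines, with log2 differences of 1.02 in Huh7-R-A7 (SE 0.26, adjusted p = 0.016) and 1.52 in Huh7-R (SE 0.26, adjusted p = 0.0024), or at least 1.78-fold and 2.51-fold, since its Huh7-S mean lay below log2 6. In the clone it did not pass without replicate 2 of Huh7-R-A7 (0.96, adjusted p = 0.053). BCL2L11, which encodes BIM, was at 7.33, 7.99 and 7.90 in Huh7-R-A7, 8.10, 8.72 and 8.98 in Huh7-R and 7.17, 7.58 and 7.48 in Huh7-S. It rose in Huh7-R (1.19, SE 0.26, adjusted p = 0.0069) and had a difference of 0.33 in Huh7-R-A7 (adjusted p = 0.34, and 0.03 with replicates 2 and 3 alone). Between clone and pool its difference of -0.86 had an adjusted p of 0.088, and of 0.011 with the replicate number as a block, by which these arrays pair. It also passed with array weights (adjusted p = 0.01), without replicate 1 of Huh7-R (adjusted p = 0.028) and with replicates 2 and 3 alone (adjusted p = 0.0097).

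BNIP3L, a receptor for the removal of mitochondria, was at 11.52, 11.92 and 12.08 in Huh7-R-A7, 12.49, 12.87 and 12.75 in Huh7-R and 11.64, 11.47 and 11.32 in Huh7-S. The Huh7-R arrays stood above all others. It rose in Huh7-R by 1.23 (SE 0.16, adjusted p = 0.00068), had a difference of 0.37 in Huh7-R-A7 (adjusted p = 0.11) and was lower in the clone than in the pool (-0.86, SE 0.16, adjusted p = 0.019). In the clone it passed against Huh7-S with array weights (0.49, adjusted p = 0.0084), without replicate 1 of Huh7-R-A7 (0.53, adjusted p = 0.026) and with replicates 2 and 3 alone (0.61, adjusted p = 0.0059). PMAIP1, which encodes the MCL1 antagonist NOXA, was at 6.12, 5.94 and 6.25 in Huh7-R-A7, 5.09, 5.15 and 5.04 in Huh7-R and 5.28, 5.15 and 5.16 in Huh7-S. Its signal was around the noise limit in the clone and below it elsewhere. Against Huh7-S it rose in Huh7-R-A7 by 0.91 as measured (SE 0.08, adjusted p = 1e-04), at least 1.07-fold as a bound. It was below log2 6 on 7 of the 9 arrays, and those above were of the clone. No probe set of the table was below that limit on more than 85% of arrays. PMAIP1 was thus kept only through the group where it is high, and its call is no independent evidence.

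Genes that govern MCL1 turnover moved in both directions. USP9X, a deubiquitinase that stabilizes MCL1, was at 12.63, 12.67 and 12.72 in Huh7-R-A7, 13.09, 12.93 and 13.08 in Huh7-R and 12.03, 12.19 and 12.10 in Huh7-S. It rose by 0.56 in Huh7-R-A7 (SE 0.07, adjusted p = 0.00038) and by 0.93 in Huh7-R (SE 0.07, adjusted p = 3.5e-05). HUWE1, a ubiquitin ligase of MCL1, was at 13.11, 13.29 and 13.20 in Huh7-R-A7, 13.37, 13.37 and 13.35 in Huh7-R and 13.52, 13.62 and 13.55 in Huh7-S. It fell by 0.37 in Huh7-R-A7 (SE 0.06, adjusted p = 0.0018) and by 0.20 in Huh7-R (SE 0.06, adjusted p = 0.027), a call in Huh7-R that was lost with each array centered on its median (-0.13, adjusted p = 0.18) and in 5 of 9 fits that left out 1 array, those without replicate 1, 2 or 3 of Huh7-R or replicate 2 or 3 of Huh7-S (adjusted p of 0.052 to 0.087). USP13, another deubiquitinase, was at 8.08, 8.06 and 7.97 in Huh7-R-A7, 8.08, 7.68 and 7.57 in Huh7-R and 9.01, 8.85 and 8.71 in Huh7-S, and fell by 0.82 in Huh7-R-A7 (SE 0.14, adjusted p = 0.002) and by 1.08 in Huh7-R (SE 0.14, adjusted p = 5e-04). In all, 1 of 6 genes of this list rose and 2 fell in Huh7-R-A7, and 3 rose and 2 fell in Huh7-R, against 42.7% and 45.1% of all genes that passed in either direction.

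**Figure D4:**
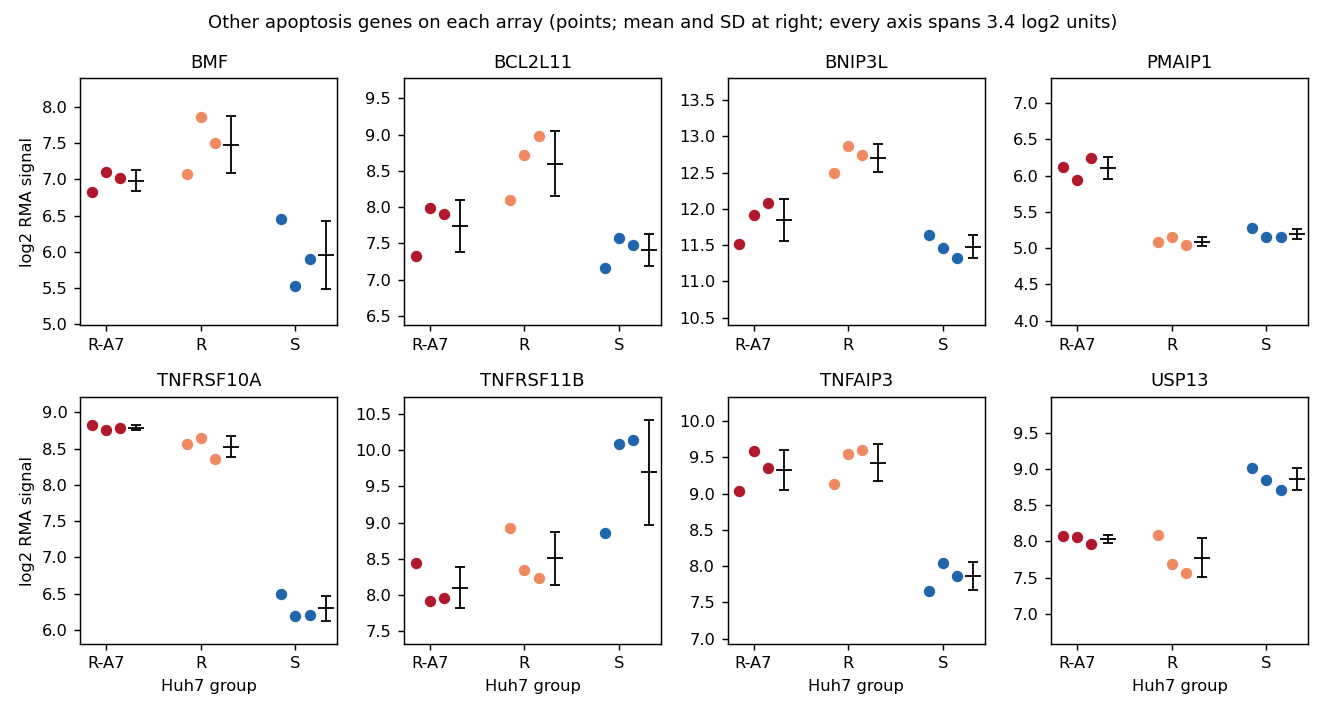
Log2 RMA signal of 8 other apoptosis genes, with a point for each array of Huh7-R-A7 (R-A7), Huh7-R (R) and Huh7-S (S) and the group mean with its SD (n = 3) at the right of the points; every vertical axis spans the same number of log2 units. TNFRSF10A, TNFAIP3 and BMF are higher in both resistant groups than in Huh7-S, USP13 is lower in both, and PMAIP1 is higher in the clone only.

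Of the other IAPs, 3 of 5 were measured. BIRC6, a giant IAP with ubiquitin-conjugating activity, was at 10.35, 10.60 and 10.63 in Huh7-R-A7, 9.64, 9.88 and 9.89 in Huh7-R and 9.44, 9.72 and 9.63 in Huh7-S. Its clone arrays lay above all others. It rose in Huh7-R-A7 by 0.93 (SE 0.11, adjusted p = 0.00039), was higher there than in Huh7-R by 0.72 (SE 0.11, adjusted p = 0.0079), and had a difference of 0.21 in Huh7-R (adjusted p = 0.16). In Huh7-R it passed with the replicate block (adjusted p = 0.012), which also spans the Huh7-S arrays that do not pair, and with replicates 2 and 3 alone (adjusted p = 0.016). BIRC5, survivin, which serves chromosome segregation as well, fell by 0.40 in Huh7-R (SE 0.12, adjusted p = 0.029) and had a difference of -0.20 in Huh7-R-A7 (adjusted p = 0.22). The fall of BIRC5 in Huh7-R did not pass without replicate 2 or 3 of Huh7-R or replicate 1 or 2 of Huh7-S (adjusted p of 0.066 to 0.095). It also did not pass with replicates 2 and 3 alone (-0.42, adjusted p = 0.06). In Huh7-R-A7 BIRC5 passed with array weights (-0.34, adjusted p = 0.018).

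Of 8 measured death ligand and receptor genes 3 rose and 1 fell in each line, against 42.7% and 45.1% of all genes that passed. The 3 include TNFSF10, TRAIL itself, whose group means lay below log2 6 in all groups, so that no fold is given. It was below log2 6 on 7 of the 9 arrays. The filtered table kept it only through replicates 2 and 3 of Huh7-R (6.07 and 6.055). TNFRSF10A had the largest difference of the 57. TNFRSF10A, the death receptor DR4 of the ligand TRAIL, was at 8.82, 8.76 and 8.78 in Huh7-R-A7, 8.57, 8.64 and 8.36 in Huh7-R and 6.50, 6.19 and 6.21 in Huh7-S. All resistant arrays stood far above the parental ones. It was 5.61-fold higher in Huh7-R-A7 (log2 2.49, SE 0.10, adjusted p = 2.4e-06) and 4.67-fold in Huh7-R (2.22, SE 0.10, adjusted p = 4.1e-06). TNFRSF10B, the second death receptor of TRAIL, rose in Huh7-R-A7 by 0.48 (SE 0.09, adjusted p = 0.0044) and had a difference of 0.21 in Huh7-R (adjusted p = 0.11), where it passed with median centering, cyclic loess and array weights (adjusted p of 0.022, 0.022 and 0.024), without replicate 1 of Huh7-S (0.038) and with replicates 2 and 3 alone (0.038). TNFRSF10D, a decoy receptor, had a difference of 0.28 in Huh7-R-A7 (adjusted p = 0.088) and rose in Huh7-R by 0.65 (SE 0.12, adjusted p = 0.0026). In the clone it passed with median centering (adjusted p = 0.035), cyclic loess (0.047), array weights (0.037), only the 2 groups compared (0.0079) and without replicate 1 or 2 of Huh7-R (0.032 and 0.016). Neither gene passed between clone and pool (adjusted p = 0.13 for TNFRSF10B and 0.095 for TNFRSF10D), but both did with array weights (0.042 and 0.0098). TNFRSF11B, osteoprotegerin, a secreted decoy of TRAIL and RANKL, was at 8.44, 7.92 and 7.95 in Huh7-R-A7, 8.93, 8.35 and 8.24 in Huh7-R and 8.85, 10.08 and 10.13 in Huh7-S. The clone lay below every parental array, while replicate 1 of Huh7-R overlapped with replicate 1 of Huh7-S. It fell by 1.59 in Huh7-R-A7 (SE 0.36, adjusted p = 0.0089) and by 1.19 in Huh7-R (SE 0.36, adjusted p = 0.029), and the call in Huh7-R was lost in 4 of 9 fits that left out 1 array, those without replicate 2 or 3 of Huh7-R or of Huh7-S (adjusted p of 0.089 to 0.096), with the replicate block (0.063) and with only the 2 groups compared (0.068).

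Of the caspases and parts of the apoptosome, 12 were measured. In Huh7-R-A7 0 of the 12 rose and 1 fell, and in Huh7-R 1 rose and 3 fell, where of all genes 18% and 19% rose and 24.6% and 26.2% fell. Of the 12, 0 also rose in the clone at an unadjusted limma p below 0.05. CASP2, an initiator caspase of genotoxic stress, fell by 0.50 in Huh7-R-A7 (SE 0.09, adjusted p = 0.0033) and by 0.63 in Huh7-R (SE 0.09, adjusted p = 0.001). APAF1, the scaffold of the apoptosome, rose by 0.40 in Huh7-R (SE 0.09, adjusted p = 0.0079). CASP8, CASP9, CYCS and AIFM1 did not pass in either line.

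NF-kB genes, upstream and downstream of BIRC2 and BIRC3, rose in 6 of 10 measured members in both resistant lines. In Huh7-R-A7 0 fell (0 also at an unadjusted limma p below 0.05) and in Huh7-R 1 did, CHUK (-0.35, adjusted p = 0.013). NFKB1, RELA and NFKBIE did not pass in either line. The shares of all genes that rose were 18% and 19%, and earlier results of these data had shown rises of NF-kB targets, so that this count is no independent evidence. TNFAIP3, the ubiquitin editor A20 that ends NF-kB signaling and limits cell death, was at 9.03, 9.59 and 9.36 in Huh7-R-A7, 9.13, 9.54 and 9.59 in Huh7-R and 7.66, 8.05 and 7.87 in Huh7-S. It stood above every parental array and was 2.76-fold higher in Huh7-R-A7 (log2 1.46, SE 0.18, adjusted p = 0.00044) and 2.96-fold in Huh7-R (1.56, SE 0.18, adjusted p = 0.00032). The inhibitor gene NFKBIB rose by 0.96 in Huh7-R-A7 (SE 0.09, adjusted p = 1e-04) and by 0.72 in Huh7-R (SE 0.09, adjusted p = 0.00045). NFKBIA rose by 0.60 in Huh7-R-A7 (SE 0.14, adjusted p = 0.01) and by 0.71 in Huh7-R (SE 0.14, adjusted p = 0.0044). NFKB2, the precursor of the non-canonical subunit, rose by 0.54 in Huh7-R-A7 (SE 0.05, adjusted p = 6.3e-05) and by 0.38 in Huh7-R (SE 0.05, adjusted p = 0.00037). TRAF3, of the list of death receptor adaptors and kinases, joins BIRC2 and BIRC3 in holding back that branch. It fell in Huh7-R by 0.55 (SE 0.07, adjusted p = 0.00074). In Huh7-R-A7 it had a difference of -0.11 (adjusted p = 0.27), which passed without replicate 3 of Huh7-S (-0.19, adjusted p = 0.03).

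Several facts of the arrays touch these values. Replicate 1 of Huh7-S differed by over 1 log2 unit from the mean of the other Huh7-S arrays in 4.11% of genes, against 0.0409% to 1.06% for the other 8 arrays, and its BIRC2 and BID were nearer to the resistant arrays than those of the other Huh7-S replicates. Of the 7 members 4 (MCL1, BAX, BAK1 and XIAP) had exactly the same value on 3 or more arrays, and 3578 of 9784 genes did. Of 12 hepatocyte and hepatoma markers 10 were measured. The log2 of their summed signal was 17.48 to 18.1 in Huh7-R-A7, 17.98 to 18.34 in Huh7-R and 19.14 to 19.64 in Huh7-S. The means of AFP, ALB, APOA1, APOB, APOH, TTR and SERPINA1 were lower in both resistant lines. APOA1 and SERPINA1 were below log2 6 on every resistant array. The filtered table kept these 2 only through Huh7-S arrays, so their lower means are no independent evidence. FGB was higher, with means of 14.27 in Huh7-R-A7, 14.98 in Huh7-R and 12.64 in Huh7-S. KRT8 (14.90, 14.75 and 14.58) and KRT18 (16.10, 16.13 and 15.96) also had higher means in both lines. Of 6 fibroblast markers 2 were measured, COL1A2 and LUM, whose summed signal was 9 to 9.47 in Huh7-R-A7, 9.4 to 9.61 in Huh7-R and 6.28 to 6.48 in Huh7-S. Both were below log2 6 on every Huh7-S array, so the Huh7-S sum adds signals taken as noise. The filtered table kept both only through resistant arrays, so their rise is no independent evidence. LYZ alone of 6 leukocyte markers was measured, at 6.69 to 7.45 in Huh7-R-A7, 7.64 to 8.3 in Huh7-R and 7.56 to 11.67 in Huh7-S, the highest in replicate 1, and no endothelial marker of 5. Their part in the changes of the apoptosis genes was not tested. In RNA from whole cultures, a change within each cell cannot be told apart from a change in the share of cells that express a gene.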

How the data were processed

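Total RNA of 9 cultures was hybridized to Affymetrix Human Transcriptome Array 2.0 chips, 3 biological replicates a group. The authors deposited log2 values per probe set after RMA in Affymetrix Expression Console, whose version and annotation build are not given in the sources used here, and the values were not normalized again. The paper describes a filter against weakly expressed genes, by the share of arrays (85%) under log2 6. Among the 11013 probe sets deposited, 0 lay below that limit on more than 85% of arrays. Counts of measured genes and shares of all genes thus refer to this filtered set, not to the whole array. Whether genes that were not measured, such as BIRC3, were removed by the filter was not tested. Of the 11013 probe sets, 9851 had 1 gene symbol, 624 several and 538 were unnamed here. A total of 77 symbols were updated, and 67 genes with several probe sets were averaged, which gave 9784 genes. Array medians lay between 8.22 and 8.38. Groups came from the sample titles. The descriptions of clone replicates 2 and 3 carry another clone name in one line and A7 in the next.

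Differences were fitted with limma 3.58.1 in R 4.3.3 (lmFit, then eBayes with trend) over the 9 arrays together with group as the only term, and p-values were adjusted by Benjamini-Hochberg over 9784 genes. The fit was tested on simulated data with independent noise, without the pairing of clone and pool. There 9584 of 9784 genes were unchanged, while in the arrays 42.7% of genes passed in Huh7-R-A7 and 45.1% in Huh7-R against Huh7-S. The Benjamini-Hochberg adjustment was thus stricter in the simulation, and its rates are not those of the fits here. In the simulation, changes of 0.5 log2 units against Huh7-S passed in 50% of cases in each line. Changes of 1 passed in 98% of 50 cases in Huh7-R-A7 and 84% of 50 cases in Huh7-R. Whether this rate differs between the lines was not tested. A gene that did not pass may thus still have changed. A fold is given as a bound where a group mean was below log2 6, with lower arrays set to 6. Only 3 arrays a group limit the precision, and p-values measure the spread between cultures of 1 parental line, 1 pool and 1 clone. Deviations of same-numbered clone and pool arrays correlated (r = 0.596, 0.493 and 0.418), and those with Huh7-S did not (-0.211 to 0.101), so the numbers pair the clone with the pool, from the data alone. The replicate block was fitted over all 9 arrays. Against Huh7-S it thus assumes a pairing that the data do not show. Other genes were named where they passed with an absolute difference of at least 1, up to 4 a list, besides neighbors of the members and genes chosen after their values were seen. The members and lists were chosen with earlier results of these data known. Promoters came from RefSeq (GRCh38.p14). Alternatives changed the scaling, variance prior, probe set choice, low-signal filter, equal values, array weights, samples, replicate block, threshold and replicates. Figures were drawn with matplotlib 3.10.9 in Python 3.11.15.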

Additional observations from a re-analysis of the deposited data

Results flagged for a closer look

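Between Huh7-R-A7 and Huh7-R, 6 of the 57 other apoptosis genes passed limma's test of the difference between the lines (Benjamini-Hochberg), and 0 of the 7 members did, against 8.63% of all genes. For 2 of the 6, PMAIP1 and TNFSF10, signals lay around or below the noise limit of log2 6. The filtered table kept PMAIP1 only through clone arrays and TNFSF10 only through pool arrays, so their calls are no independent evidence. PMAIP1 was below that limit on every Huh7-R and Huh7-S array, and its measured log2 difference of 1.01 between clone and pool (adjusted p = 0.00052; 0.91 and -0.10 against Huh7-S) stands for a bound of at least 1.07-fold. BIRC6 was 0.72 higher in the clone (adjusted p = 0.0079), with 0.93 and 0.21 against Huh7-S, and the 0.21 passed with the replicate block (adjusted p = 0.012). TRAF3 was 0.44 higher in the clone (adjusted p = 0.012), with -0.11 and -0.55 against Huh7-S, and did not pass without replicate 2 of Huh7-R-A7 (0.42, adjusted p = 0.051) or replicate 3 of Huh7-R (0.41, adjusted p = 0.055). BNIP3L had a difference of -0.86 (adjusted p = 0.019), with 0.37 (passed with array weights, adjusted p = 0.0084) and 1.23 against Huh7-S, and did not pass without replicate 2 of Huh7-R-A7 (adjusted p = 0.053) or replicate 2 or 3 of Huh7-R (adjusted p = 0.078 each). USP9X had a difference of -0.36 (adjusted p = 0.017), with 0.56 and 0.93 against Huh7-S, and did not pass without replicate 1 or 2 of Huh7-R-A7 (adjusted p = 0.057 and 0.063) or replicate 3 of Huh7-R (adjusted p = 0.074). TNFSF10 had a difference of -0.47 (adjusted p = 0.023), with 0.47 and 0.94 against Huh7-S, but all group means lay below log2 6 and no fold is given. It did not pass without any 1 of the 3 Huh7-R-A7 arrays or replicate 2 or 3 of Huh7-R (adjusted p of 0.071 to 0.097).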

How the results depend on the processing

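BIRC2 and BCL2L1 in both resistant lines and BID in Huh7-R passed in every fit that left out 1 array. Members that rose in Huh7-R-A7 against Huh7-S numbered 2, but 1 at an adjusted p below 0.01 and 1 to 2 when 1 array was left out. With only genes of 9 different values, 0 members fell in either line, since BCL2L1 was not among them. Between clone and pool 0 to 1 members rose when 1 array was left out, and 1 fell with array weights and 1 with replicates 2 and 3 of each group, a setting chosen after seeing the data.

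Only 22 of the 57 other apoptosis genes had 9 different values, so that fewer genes were counted in that setting. Of these 22, 3 fell in Huh7-R-A7 (5 of 57 in the main fit). In Huh7-R 10 of the 22 rose (17 of 57) and 4 fell (10 of 57). Of all 57, 6 fell in Huh7-R with only the 2 groups compared, 3 at an adjusted p below 0.01 and 4 to 9 when 1 array was left out. Between clone and pool 10 rose and 8 fell with array weights (not 3 and 3), 0 fell at an adjusted p below 0.01, 7 fell with replicates 2 and 3, and 2 to 5 rose and 0 to 6 fell when 1 array was left out. With the replicate block the members' calls were 2 up and 1 down in each resistant line and 0 between them, and of the other genes 13 rose and 5 fell in the clone, 18 rose and 8 fell in the pool, and 3 rose and 4 fell between them. Among the genes checked one by one with the block, it ended the call of TNFRSF11B in the pool. It made calls of BIRC6 in the pool and of BCL2L11 between clone and pool, and it changed no other call among them. Other genes named, such as CHUK, BCAP31, BOK and the neighbors of the members, were not checked one by one.

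Among the genes checked one by one, only differences that had not passed changed sign. MCL1 was -0.006 with array weights and -0.026 with replicates 2 and 3 in Huh7-R-A7 against Huh7-S (-0.026 to 0.063 with 1 array left out), and 0.062 with median centering, 0.016 with cyclic loess and -0.021 to 0.002 with 1 array left out in Huh7-R. BAK1 was -0.055, -0.068 and -0.021 to 0.089 in Huh7-R-A7, and 0.035, 0.009 and -0.087 to 0.007 in Huh7-R, under the same settings. Between clone and pool MCL1 was -0.005 with replicates 2 and 3 and -0.013 to 0.077 with 1 array left out, XIAP -0.004 with cyclic loess and -0.020 to 0.030, TNFAIP3 -0.246 to 0.048 and NFKBIA -0.196 to 0.034. The cause was not tested.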
